A study of Mus musculus with 3 samples.

Results

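The genes described here encode the phagocyte NADPH oxidase and proteins that accompany its oxidative burst. They are 9 of the 16742 genes listed in any library: Cybb, Cyba, Ncf1, Ncf4, Rac1, Rac2, Hvcn1, Sod2 and Cat. They were picked by name for their role, with earlier results of these data known, and looked up by NCBI Gene ID. All 9 were listed in each of the 3 libraries. RNA-seq gave 1 library for each condition, so no difference below has a replicate check. The control library came from lin- BM cells of wild type C57BL/6 mice, which are marrow cells left after depletion of mature lineages. The TR1 and TR9 libraries came from sorted GFP+ BM cells of mice whose labelled genotype is TBLR1-RARa, also on C57BL/6. The labels give an age of 6 to 8 weeks for all mice, and each library pooled cells of 3 mice. A retroviral vector carried the TR fusion gene and GFP on one transcript, and RNA was taken from the third generation of serially transplanted mice. TR1 and TR9 are named after single primary mice, so each leukemia descends from one animal. Viral transduction, transplantation, leukemia and the way the cells were isolated all separate TR cells from control cells, and these cannot be told apart here.

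The NADPH oxidase moves electrons from NADPH inside a phagocyte across the membrane onto oxygen, which becomes superoxide. Its membrane core, flavocytochrome b558, is a dimer of gp91phox (gene Cybb) and p22phox (Cyba). At rest, cytosolic subunits such as p47phox (Ncf1) and p40phox (Ncf4) wait in the cytosol. On activation they move to the membrane together with a small GTPase, Rac2 or Rac1, and electron flow begins. The proton channel Hv1 (Hvcn1) lets protons follow the electrons and keeps the burst running. Superoxide is turned into hydrogen peroxide by superoxide dismutases, of which Sod2 encodes the mitochondrial one, and catalase (Cat) breaks hydrogen peroxide down in peroxisomes. Neutrophils are the best known users of this oxidase, and its genes are switched on as granulocytes and monocytes mature.

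Start-site windows of 4 of these genes are shown because their RNAs moved in opposite directions, with Cybb (called in TR1 only), Cyba and Ncf1 higher in TR cells and Cat lower. RefSeq promoter windows (GRCm38.p6, 250 bases before the start and 50 after it) were found for 5 of the 9 genes, the fifth being Sod2. All 4 windows printed lie on the minus strand and are written 5′ to 3′ along the gene, at chrX:9469275-9469574 for Cybb, chr8:122432891-122433190 for Cyba, chr5:134229576-134229875 for Ncf1 and chr2:103485104-103485403 for Cat. Capitals mark, on either strand, the core GAGGAA bound by the myeloid factor PU.1, the motif AGGTCA bound by retinoic acid receptors and other nuclear receptors, and the CCAAT box. In the Cat window a CCAAT match on the opposite strand, ATTGG, begins inside the GAGGAA match.
Cybb: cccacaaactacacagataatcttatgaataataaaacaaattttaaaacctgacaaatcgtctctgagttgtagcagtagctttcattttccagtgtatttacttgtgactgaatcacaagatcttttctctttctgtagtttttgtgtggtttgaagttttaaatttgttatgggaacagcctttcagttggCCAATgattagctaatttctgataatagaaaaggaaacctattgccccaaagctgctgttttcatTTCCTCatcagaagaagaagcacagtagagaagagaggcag
Cyba: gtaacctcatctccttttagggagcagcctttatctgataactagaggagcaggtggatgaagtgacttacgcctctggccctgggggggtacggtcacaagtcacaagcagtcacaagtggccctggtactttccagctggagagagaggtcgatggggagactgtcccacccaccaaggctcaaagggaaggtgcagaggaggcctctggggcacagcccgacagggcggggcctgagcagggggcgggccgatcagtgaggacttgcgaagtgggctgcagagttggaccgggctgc
Ncf1: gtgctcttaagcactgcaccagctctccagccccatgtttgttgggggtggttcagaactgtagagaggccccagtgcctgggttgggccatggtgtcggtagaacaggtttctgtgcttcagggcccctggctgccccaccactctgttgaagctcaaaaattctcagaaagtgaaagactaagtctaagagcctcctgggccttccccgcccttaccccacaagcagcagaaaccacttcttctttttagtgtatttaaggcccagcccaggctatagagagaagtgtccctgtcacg
Cat: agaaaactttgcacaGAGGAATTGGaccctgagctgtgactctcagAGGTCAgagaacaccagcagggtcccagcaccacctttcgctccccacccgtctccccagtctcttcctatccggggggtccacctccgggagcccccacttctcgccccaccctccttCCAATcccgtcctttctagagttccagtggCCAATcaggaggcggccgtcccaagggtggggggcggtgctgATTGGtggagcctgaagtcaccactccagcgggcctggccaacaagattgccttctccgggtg

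GAGGAA was found in 3 of the 5 windows (Cybb, Sod2 and Cat), and 28.3% of all 32851 windows hold it. In Cybb it lay on the opposite strand, starting 10 bases into the RefSeq transcript. CCAAT was also found in Cybb, Sod2 and Cat, and 37.4% of all windows hold it. AGGTCA was found in Cat only, 204 bases before the start, whereas 16.3% of all windows hold it. A direct repeat of AGGTCA with 5 bases between, the classical arrangement for retinoic acid receptors, was found in 0 of the 5 windows and in 3 of all windows. Only exact copies were counted. So few windows hold them that 0 of 5 cannot tell whether these genes have such an element in a looser form. The motifs TTGCNNAA (C/EBP family), GGGANTTCC (NF-κB) and TGACNNNGC (antioxidant response element), searched on both strands, had no match in the 5 windows. They are held by 10.8%, 1.68% and 12.4% of all windows. The Cyba and Ncf1 windows held none of the motifs searched. The Cybb window was poor in G and C, at 35.3%, against a median of 52.7% over all windows and 60.7% in Cyba. These matches describe letters in a window and are not binding sites.

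Expected counts, the RSEM estimates of reads per gene, summed to between 5129662 and 5571409 per library. Levels are given in FPKM, the authors' fragment counts scaled for transcript length and library total, and intervals are 95% exact intervals that cover counting error only. A gene was called between 2 libraries at a false discovery rate (FDR) of at most 0.001 by a conditional exact Poisson test together with an absolute log2 ratio of FPKM of at least 1. Such a call compares 2 libraries and not 2 conditions, and in bulk RNA fewer cells of a type and less RNA per cell cannot be told apart. The median log2 ratio over all tested genes was -0.29 in TR1 and -0.12 in TR9. TMM scaling, which levels the bulk of the genes, raised the log2 ratios by 0.24 in TR1 and by 0.11 in TR9, and rescaling FPKM to a common sum lowered them by 0.23 and 0.11. The share of calls that were lower in TR1 was 61.7%, and it was 49.1% with TMM and 73.3% with the common sum. In TR9 it was 53.6%, 46.7% and 60.1%.

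In TR1, 6 of the 9 genes were higher than control, namely Cybb, Cyba, Ncf1, Ncf4, Rac2 and Hvcn1. Sod2 and Cat were lower, and Rac1 was not called. Over all 16282 genes tested, 8.09% were called higher and 13% lower. In TR9, 5 of the 9 were higher (Cyba, Ncf1, Ncf4, Rac2 and Hvcn1), 1 was lower (Cat) and 3 were not called (Cybb, Sod2 and Rac1). There 9.37% of 16303 genes were called higher and 10.8% lower. The TR1 and TR9 comparisons share the control library, so they are not independent of each other. The median log2 ratio of the 9 genes was 1.57 in TR1 and 1.06 in TR9. If a biological coefficient of variation of 0.2 is assumed in place of counting error alone, edgeR's exact test called 4 genes higher and 1 lower in TR1 and 1 higher in TR9 (Hvcn1). Ncf1, Rac2 and Sod2 lost their call in TR1, and Cyba, Ncf1, Ncf4, Rac2 and Cat lost theirs in TR9. Of all genes, 657 were called higher and 992 lower in TR1 at this setting, and 717 and 830 in TR9. With 0.4 assumed the exact test called 0 of the 9 in both. Of all genes it called 170 higher and 347 lower in TR1, and 161 and 287 in TR9.

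**Figure D1:**
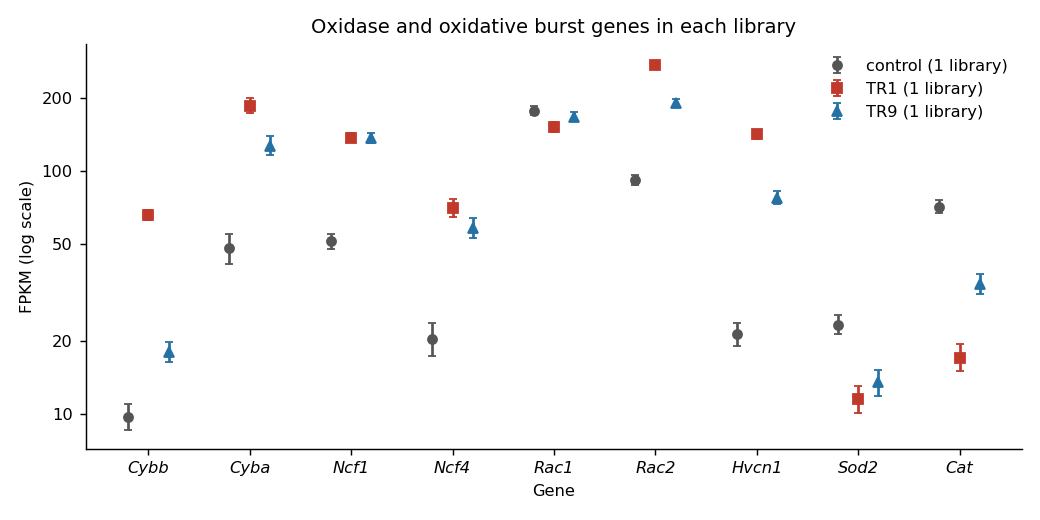
FPKM of the 9 genes (log axis) in control (circles), TR1 (squares) and TR9 (triangles), 1 library each, with bars for the 95% exact counting interval. Cybb spans 9.69 to 65.6, Rac1 stays between 152 and 177, and Sod2 and Cat have their highest value in control.

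Of the membrane core, Cybb showed the widest span. Cybb lies at chrX:9435252-9487771 on the minus strand (GRCm38, GENCODE M21, used for locations only). The RefSeq start-site window shown above lies inside this span and not at its upper end, where a minus-strand gene begins. Cybb had 9.69 FPKM in control, 65.6 in TR1 and 17.9 in TR9, from 255, 1758 and 441 expected counts. Its level was highest in TR1 and lowest in control, and none of the 3 intervals overlapped. Ranked among the genes listed in each library, Cybb moved from percentile 54.9 in control to 92.8 in TR1 and 69.4 in TR9. Against control the log2 ratio was 2.76 in TR1 (95% interval 2.57 to 2.96), a 6.77-fold difference. In TR9 it was 0.89 (0.66 to 1.11), under the threshold for a call, and between 0.78 and 0.99 under the alternative scalings, pseudocount and filters. Cyba, at chr8:122424776-122432930 on the minus strand, had 48.0 FPKM in control, 185.5 in TR1 and 127 in TR9, from 195, 767 and 484 counts. The order of the libraries was the same as for Cybb, but the TR libraries stood closer to each other. The log2 ratio of Cyba was 1.95 in TR1 (1.72 to 2.18) and 1.41 in TR9 (1.16 to 1.65).

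The partners of the dimer therefore did not keep 1 ratio of RNA. The FPKM of Cybb was 0.202 of that of Cyba in control (95% interval 0.167 to 0.244), 0.354 in TR1 (0.325 to 0.386) and 0.141 in TR9 (0.123 to 0.160). On the log2 scale the ratio was 0.81 higher in TR1 than in control (0.51 to 1.11) and 0.52 lower in TR9 than in control (-0.86 to -0.19). A ratio within a library does not depend on how the library is scaled.

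The cytosolic subunits Ncf1 and Ncf4 were called higher in both TR libraries. Ncf1, at chr5:134220053-134229625 on the minus strand, had 51.3 FPKM in control, 137.1 in TR1 and 136.6 in TR9, from 768, 2091 and 1915 counts. The TR libraries had overlapping intervals and both lay above control. Its log2 ratio was 1.42 in TR1 (1.30 to 1.54) and 1.41 in TR9 (1.29 to 1.54). Ncf4, at chr15:78244801-78262580 on the plus strand, had 20.4 FPKM in control, 70.3 in TR1 and 58.1 in TR9, from 162, 570 and 433 counts. Both TR values were above control, with log2 ratios of 1.79 (1.54 to 2.05) and 1.51 (1.25 to 1.78). The FPKM of Ncf4 was 0.397, 0.513 and 0.425 of that of Ncf1 in control, TR1 and TR9. On the log2 scale this ratio was 0.37 higher in TR1 than in control (0.09 to 0.66). In TR9 it differed from control by 0.10, with an interval from -0.19 to 0.40.

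**Figure D2:**
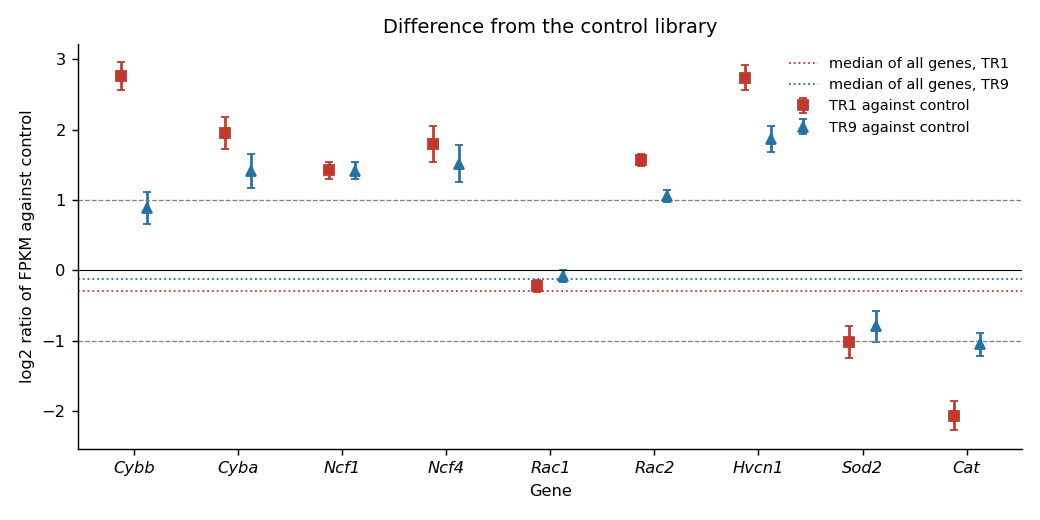
Log2 ratio of FPKM against control for the 9 genes in TR1 (squares) and TR9 (triangles) with 95% exact counting intervals, dashed lines at the threshold of 1 in each direction and dotted lines at the median of all tested genes (-0.29 and -0.12). Cybb is at 2.76 in TR1 and 0.89 in TR9, whereas Ncf1 is at 1.42 and 1.41.

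The small GTPases differed from each other. Rac2, the form restricted largely to blood cells, lies at chr15:78559167-78572783 on the minus strand. It had 92.0 FPKM in control, 272 in TR1 and 191 in TR9, from 1539.58, 4638.32 and 2993.72 expected counts. Control was lowest and TR1 highest, with no overlap of intervals. The log2 ratio of Rac2 was 1.57 in TR1 (1.48 to 1.65) and 1.06 in TR9 (0.97 to 1.14), and with FPKM rescaled to a common sum it was 0.95 in TR9 and not called. Rac1, the form found in nearly all tissues, lies at chr5:143503634-143528036 on the minus strand. It had 177 FPKM in control, 152 in TR1 and 168 in TR9, from 2226, 1940 and 1968 counts. Its log2 ratio was -0.22 in TR1 (-0.31 to -0.14) and -0.08 in TR9 (-0.17 to 0.01), close to the medians over all genes, and the sign turned to 0.01 and 0.02 with TMM scaling. The conditional exact Poisson test gave Rac1 an adjusted p of 3.11e-06 in TR1, where the log2 ratio was under the threshold for a call, and 0.133 in TR9. The FPKM of Rac2 was 0.518 of that of Rac1 in control (0.485 to 0.553), 1.79 times that of Rac1 in TR1 (1.70 to 1.89) and 1.14 times in TR9 (1.08 to 1.21). Rac1 was thus the more abundant of the pair in control and Rac2 in both TR libraries. The shift of this ratio from control was 1.79 on the log2 scale in TR1 (1.67 to 1.91) and 1.14 in TR9 (1.01 to 1.26).

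Rac1 and Rac2 are close relatives, and the split of reads between them matters for that ratio. In GENCODE M21 their coding regions, 579 bases each, were identical at 77.0% of positions. The longest run of bases that a protein-coding Rac1 transcript shares with one of Rac2 was 29 bases long, and it begins with the start codon, shown here in lower case throughout.
Rac1 and Rac2: atgcaggccatcaagtgtgtggtggtggg
The counts of Rac2 were not whole, with fractions of 0.58, 0.32 and 0.72 in control, TR1 and TR9, as happens when RSEM splits a read that fits several genes, whereas those of Rac1 departed from whole numbers by at most 0.02. The read length was not given in the sources used here. Exons of 3 members overlap those of a gene on the opposite strand in GENCODE M21, and the strand setting of the libraries was not given, so reads in the overlap could not be assigned by strand. These partners, Gtf2ird2 for Ncf1, Daglb for Rac1 and Tctn1 for Hvcn1, had between 4.65 and 26.6 FPKM. The highest of these was Daglb in TR1, where Rac1 had 152.

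Hvcn1, at chr5:122206804-122242297 on the plus strand, was the member that differed most from control in TR9. It had 21.3 FPKM in control, 142 in TR1 and 77.7 in TR9, from 314, 2111 and 1070 counts. Both TR libraries were above control and TR1 was above TR9. The log2 ratio was 2.74 in TR1 (2.57 to 2.92), a 6.68-fold difference, and 1.87 in TR9 (1.69 to 2.06), a 3.66-fold difference. Hvcn1 is also used by B cells. The B cell markers Cd79a and Cd79b, with 8 and 69 counts in control, were at 0 in both TR libraries, and Pax5 was at 0 in all 3. Igll1, a surrogate light chain gene of early B cells, went the other way with 2, 63 and 847 counts (0.43, 13.3 and 194.5 FPKM), as did Vpreb1 with 1, 14 and 20 counts. The 8 early B markers summed to 13.9, 16.7 and 199.9 FPKM in control, TR1 and TR9.

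**Figure D3:**
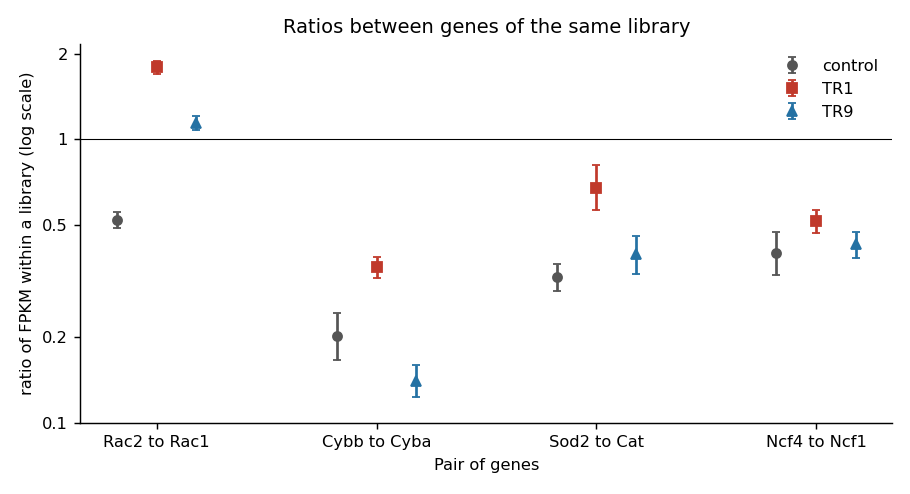
Ratio of FPKM between 2 genes of the same library (log axis) in control (circles), TR1 (squares) and TR9 (triangles), with 95% exact intervals of the counts. The ratio of Rac2 to Rac1 crosses 1, from 0.518 in control to 1.79 in TR1 and 1.14 in TR9, while that of Cybb to Cyba is highest in TR1.

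Of the enzymes that remove superoxide and hydrogen peroxide, Cat was called lower in both TR libraries and Sod2 in TR1. Cat, at chr2:103453849-103485160 on the minus strand, had 71.3 FPKM in control, 17.0 in TR1 and 34.4 in TR9, from 1000, 243 and 451 counts. Control was highest, TR1 was lowest and no intervals overlapped. The log2 ratio of Cat was -2.07 in TR1 (-2.28 to -1.86), a 4.19-fold difference. It was -1.05 in TR9 (-1.22 to -0.89), and that call was lost with TMM scaling, where the ratio was -0.95. Sod2, at chr17:13006846-13040063 on the plus strand, had 23.3 FPKM in control, 11.5 in TR1 and 13.5 in TR9, from 491.6, 246.59 and 266.44 counts. The intervals of TR1 and TR9 overlapped and both lay under control. Its log2 ratio was -1.02 in TR1 (-1.25 to -0.80), just past the threshold and at -0.78 with TMM scaling, and -0.79 in TR9 (-1.01 to -0.57), which was not called. Counts of Sod2 were not whole, so some of its reads were divided with other genes. Within a library the FPKM of Sod2 was 0.326 of that of Cat in control, 0.674 in TR1 and 0.392 in TR9. Relative to control this ratio differed by 1.05 on the log2 scale in TR1 (0.74 to 1.35) and by 0.26 in TR9, with an interval from -0.01 to 0.54.

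Compared directly, TR9 differed from TR1 in 2 of the 9 genes. Cybb was lower in TR9, with a log2 ratio of -1.87 (-2.03 to -1.72), and Cat was higher, with 1.01 (0.79 to 1.24). Of 15706 genes tested, 4.34% were called higher and 2.31% lower in TR9. With TMM scaling Cat was at 0.88 and no longer called, and Hvcn1 was called lower at -1.002. Without that scaling Hvcn1 was at -0.87 (-0.98 to -0.76). Cyba was lower by a log2 ratio of -0.54 (-0.71 to -0.38) and Rac2 by -0.51 (-0.58 to -0.44), neither of which was called. Ncf1 was at -0.01, with an interval from -0.10 to 0.08. Cybb in TR9 thus stood 3.66-fold under TR1, while the interval of Ncf1 included 0. Ncf4 was at -0.28 (-0.46 to -0.09) and was not called.

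Ordered by FPKM, Rac1 was the most abundant of the 9 RNAs in control and Cybb the least. In control, Ncf1 and Cyba had overlapping intervals, as did Sod2 with Hvcn1 and Hvcn1 with Ncf4. In TR1 the order ran from Rac2 at 272 FPKM to Sod2 at 11.5, and the interval of Hvcn1 overlapped those of Rac1 and Ncf1, which did not overlap each other. Ncf4 and Cybb also had overlapping intervals there. In TR9, Rac2 was again highest and Sod2 lowest at 13.5, and only Ncf1 and Cyba had overlapping intervals among neighbours. Cybb had a lower FPKM than Cyba and Ncf1 in each library. The genes whose pattern lay nearest to Cybb, by Euclidean distance over the log2 ratios of TR1 and TR9 against control among 7781 others that reached 10 FPKM in any library, were Vill, Nrp2 and AB124611. Their distances were 0.095, 0.197 and 0.256. Vill had 3.03 FPKM in control, 21.3 in TR1 and 5.30 in TR9.

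Other genes of the pathway were taken from 4 lists that the choice of members did not use. Of the other oxidase subunits and homologues, Rap1b was called lower in both TR libraries. The homologues Nox1, Nox3, Noxo1 and Duox1 had at most 13 counts in any library, and Nox4, Noxa1, Duox2, Duoxa1 and Duoxa2 were not listed. Cybc1, a chaperone needed to make the flavocytochrome, had 20.9, 25.1 and 29.7 FPKM in control, TR1 and TR9, and it was not called. Rap1a, a small GTPase that copurifies with the flavocytochrome, had 42.8, 31.1 and 31.6 and was not called either. Its relative Rap1b had 287, 142 and 142 FPKM, with log2 ratios of -1.02 and -1.01 that fell under the threshold with TMM scaling.

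Of 21 genes for Rac relatives and oxidase activation, 3 were higher and 3 lower in both TR libraries, and 15 were not called in each. Of all genes, 8.09% were called higher and 13% lower in TR1, and 9.37% and 10.8% in TR9, so these counts lie near the background. With TMM scaling 5 of the 21 were higher in TR1, and with the median of ratios 6. At these scalings 1674 and 1676 of all 16282 genes were called higher in TR1. Prkcb, a protein kinase C that phosphorylates p47phox, had 3.01 FPKM in control, 10.8 in TR1 and 17.5 in TR9, with log2 ratios of 1.84 and 2.54. Its relative Prkca had 14.7, 0.53 and 0.71 FPKM, with log2 ratios of -4.80 (-5.43 to -4.22) and -4.37 (-4.94 to -3.86). The protein kinases C thus changed in opposite directions, and Prkcd, at 49.3, 48.4 and 43.6 FPKM, was not called. Of the exchange factors that load Rac with GTP, Prex1 was lower, with log2 ratios of -2.41 and -1.85, and so was Vav2, with -2.23 and -1.93 from 69, 15 and 17 counts. Vav1, the form of blood cells, had 29.5, 49.3 and 42.3 FPKM and was not called. The other genes called higher in both were Arhgdib, which encodes an inhibitor that holds small GTPases of the Rac kind in the cytosol, at 511, 1986 and 1590.47 FPKM, and Tiam1, an exchange factor for Rac, at 16.9, 38.4 and 50.2. Vav1, Prkcd, Arhgdib and Tiam1 were picked after their values were seen. Over the 21 genes the log2 ratio had a median of 0.35 for TR1 and 0.13 for TR9, against -0.29 and -0.12 over all genes.

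Antioxidant enzymes were the list with the most calls. Of 28 genes, 6 were higher and 11 lower in TR1, and 6 were higher and 9 lower in TR9, with 6 higher and 9 lower in both. The background over all genes was 8.09% higher and 13% lower in TR1, and 9.37% and 10.8% in TR9. Median log2 ratios were -0.61 and -0.36, where those of all genes were -0.29 and -0.12. Gsr, glutathione reductase, which spends NADPH to restore glutathione, had 63.2 FPKM in control, 472 in TR1 and 732 in TR9. Its log2 ratio was 2.90 in TR1 (2.80 to 3.00) and 3.53 in TR9 (3.44 to 3.63). Gpx3, a glutathione peroxidase, had 8.59, 80.1 and 32.2 FPKM, with log2 ratios of 3.22 and 1.91. Prdx2, a peroxiredoxin abundant in red cells, had 322, 46.8 and 43.1 FPKM, with log2 ratios of -2.78 and -2.90. Nqo1, a quinone reductase, had 88, 5 and 15 counts, with log2 ratios of -4.16 (-5.82 to -2.89) and -2.45 (-3.35 to -1.65). The cytosolic dismutase Sod1, picked after its values were seen as the partner of Sod2, had 374, 87.1 and 120 FPKM and was called lower in both.

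For the supply of NADPH, which the oxidase consumes, 0 of 13 genes were higher and 3 lower in TR1, and 2 were higher and 1 lower in TR9. All genes gave 8.09% and 13% in TR1, and 9.37% and 10.8% in TR9. With TMM scaling, the upper quartile, the median of ratios or totals without the 100 most abundant genes, 1 of the 13 was lower in TR1. TMM and the median of ratios also gave 1 of the 13 higher in TR1. With TMM, 1674 of all 16282 genes were higher and 1615 lower in TR1. Mthfd1, an enzyme of folate metabolism, was lower in both, with 139, 31.5 and 26.2 FPKM. G6pdx, the enzyme that opens the pentose phosphate pathway, had 65.6, 103 and 69.2 FPKM and was not called. Pgd, which acts later in that pathway, was called in TR9, with 106, 157 and 396 FPKM. The others called were Idh1 and Rpia, lower in TR1 by log2 ratios of -1.10 and -1.06 that the TMM shift of 0.24 brings under the threshold, and Me1, higher in TR9 from 1, 4 and 37 counts in control, TR1 and TR9. All but Mthfd1 were picked after their values were seen. Median log2 ratios were 0.33 and 0.08, against -0.29 and -0.12 over all genes.

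**Figure D4:**
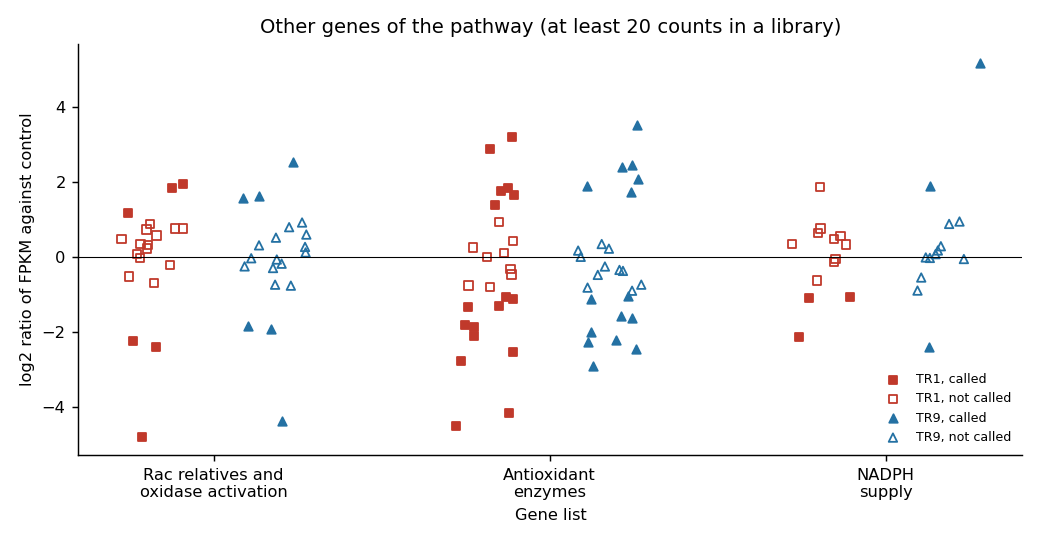
Log2 ratio of FPKM against control for genes of 3 lists with at least 20 counts in a library (20, 26 and 13 genes), in TR1 (squares) and TR9 (triangles), filled where called. Antioxidant enzymes lie on both sides of 0, while the 13 NADPH supply genes are mostly not called. The highest point in the last list is Me1, which had 1, 4 and 37 counts.

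Markers of cell types also differed between the libraries. The 4 primary granule markers, a sign of promyelocytes, summed to 4100.39 FPKM in control, 20452 in TR1 and 23289 in TR9, of which 4 were called higher in TR1 and 3 in TR9. The 7 late neutrophil markers summed to 90.6, 22062 and 8689.65 FPKM, with 7 called higher in TR1 and 6 in TR9, and none at 0. S100a8 and S100a9 made up most of this sum in control, with 36.2 and 27.0 FPKM, and in TR1, with 8187.68 and 12864. In TR9 they had 2414 and 1773 FPKM, beside 2833 for Ngp and 1647 for Camp. The order TR1 above TR9 above control, seen for the sum and for Cybb, Cyba, Ncf4, Rac2 and Hvcn1, did not hold for each marker. Between TR1 and TR9, Camp (364 and 1647 FPKM), Ngp (571 and 2833) and Ltf (3.12 and 3.96) had the larger value in TR9, and Cxcr2 had 11.4, 28.7 and 8.33 FPKM in control, TR1 and TR9. The 7 monocyte and macrophage markers summed to 233, 771 and 403 FPKM, with 3 higher and 2 lower in TR1, and 2 higher and 4 lower in TR9. Csf1r, Cx3cr1, Ccr2 and Ms4a6c had their highest FPKM in control, whereas F13a1, Cd68 and Adgre1 had their lowest there. F13a1 alone gave 98.8, 543 and 301 FPKM of the sums in control, TR1 and TR9. In the other direction, the 8 erythroid markers summed to 1970.25 FPKM in control, 2.84 in TR1 and 4.30 in TR9, all lower in both, with Epor and Tspan33 at 0 in TR1. The 6 megakaryocyte markers summed to 549 FPKM in control, 2.85 in TR1 and 1.31 in TR9. Markers of eosinophils, 4 in all, summed to 690.2, 2.60 and 4.54 FPKM, and eosinophils are also rich in the oxidase. The 4 T and NK markers summed to 97.0, 196 and 157 FPKM, of which Nkg7 alone gave 95.04, 194 and 155, and the 6 stem and progenitor markers to 193, 73.5 and 75.6. Of these 6, 5 were called lower in TR1 and 3 in TR9. The other 1, Flt3, was called higher in TR1, with 16.2, 38.4 and 6.65 FPKM in control, TR1 and TR9. Red cell precursors are a rich source of Cat, Sod1 and Prdx2 RNA. The part of these cell types in the differences of the 9 genes was not tested.

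**Figure D5:**
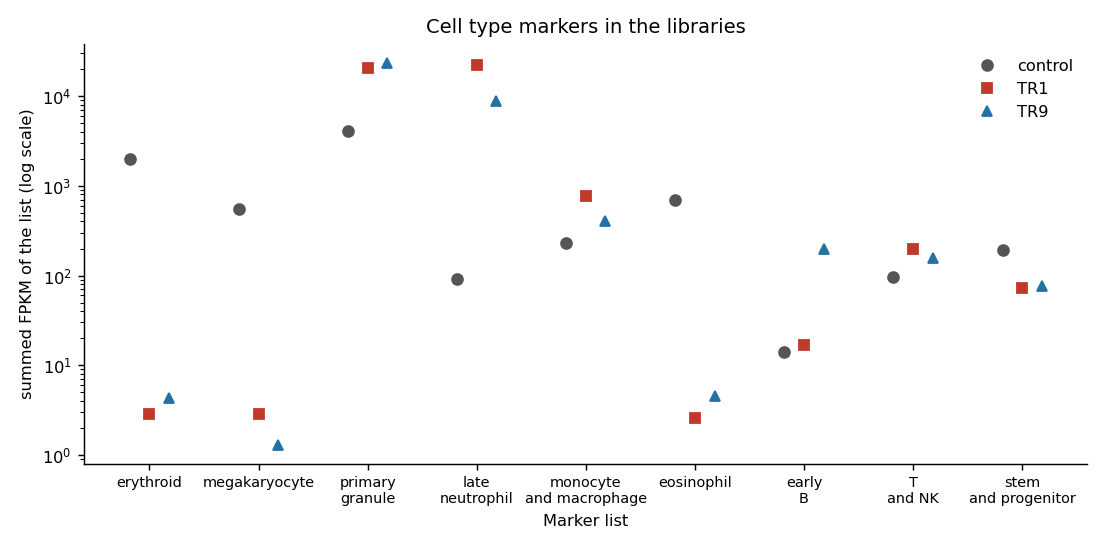
Summed FPKM (log axis) of 9 lists of cell type markers in control (circles), TR1 (squares) and TR9 (triangles). Erythroid, megakaryocyte and eosinophil markers are high in control and near 0 in both TR libraries, and late neutrophil markers are 90.6 in control, 22062 in TR1 and 8689.65 in TR9.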

How the data were processed

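RNA-seq of 3 libraries was used: lin- BM cells of wild type mice (control) and GFP+ BM cells of TR1 and TR9 mice, each a pool of 3 mice. Clean reads were aligned by the authors (BWA, Bowtie) and summarised per gene by RSEM. The submitters' processing notes name mm9, and versions were not given in the sources used here. They deposited expected counts, which are not normalized, and FPKM, scaled for length and library total. Unlisted genes were taken as 0.

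Gene IDs were named with the RefSeq table of GRCm38.p6 (16698 of 16742 matched). Locations and transcripts came from GENCODE M21 (GRCm38), and none was converted to mm9. Rounded counts went into a two-sided conditional exact Poisson test, adjusted by Benjamini-Hochberg over all genes listed in either library. FPKM under 0.01 were set to 0.01. The study's thresholds were used. A fit with replicates was not possible with 1 library per condition. In simulated data for TR1 against control (16282 genes), 195 of 200 genes changed by a log2 ratio of 2 were called, and 0 others. The simulated counts held counting error only, as the test assumes, and the changed genes left out those with low counts. The simulation therefore cannot show false calls that come from variation between mice. Depth gave totals of 5129662 to 5571409 counts, at which 3 counts are 0.538 to 0.585 CPM.

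The members, pathway lists and markers were chosen with earlier results of these data known. Named from each list were up to 4 genes called alike in TR1 and TR9, with at least 20 counts in a library, that had the largest mean absolute log2 ratio, along with Cybc1, Rap1a and the 3 genes nearest to Cybb. Other genes were chosen after their values were seen, and the ratio of Ncf4 to Ncf1 was added then. Some genes of the lists are not reported here. Alternatives were 5 scalings, the ratio of CPM, a pseudocount of 1 FPKM, minima of 10 counts or 1 FPKM, other thresholds, and edgeR's exact test with assumed variation. Python 3.11.15, scipy 1.17.1, pandas 2.3.3, matplotlib 3.10.9, R 4.3.3 and edgeR 4.0.16 were used.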

Additional observations from a re-analysis of the deposited data

Results flagged for a closer look

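Cybb and Cat were the members for which the leukemias differed from each other under the call used. The log2 ratio of TR9 to TR1 was -1.87 for Cybb, from 1758 expected counts in TR1 and 441 in TR9, and 1.01 for Cat, from 243 and 451. Both comparisons with control share the control library, so the direct ratio of TR9 to TR1 was used, which compares 1 library with 1 library. Cybb stayed called lower under each of the 5 alternative scalings, between -2.02 and -1.76, and was not called at a log2 threshold of 2 or with an assumed variation of 0.4. Cat was not called with 4 of the 5 scalings, a pseudocount of 1 FPKM, that threshold or either assumed variation.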

How the results depend on the processing

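With 1 library per condition no library could be left out, and no paired analysis was possible because the conditions share no animals or numbered replicates. TMM scaling, the upper quartile, the median of ratios and totals without the 100 most abundant genes each left 1 member lower in TR1 and 0 lower in TR9, and 0 higher in TR9 than TR1. TMM and the median of ratios gave 2 lower in TR9 than TR1. With a pseudocount of 1 FPKM, 1 was lower in TR1 and 0 were higher in TR9 than TR1. At an absolute log2 ratio of at least 2, 2 were higher and 1 lower in TR1, 0 in TR9 and 0 between TR9 and TR1. At 0.5, 6 were higher and 2 lower in TR9 than control, with Cybb (0.89) among the higher. The same threshold gave 4 lower in TR9 than TR1. With edgeR's exact test at an assumed variation of 0.2, 1 was lower in TR1, 1 higher and 0 lower in TR9, and 0 higher in TR9 than TR1; at 0.4 all counts were 0. The counts of higher members in TR1 and TR9 did not change under the 5 scalings, except for Rac2 in TR9 with FPKM rescaled to a common sum (0.95). Signs turned only for small values. Rac1 in TR1 was 0.0148 with TMM and 0.0158 with the median of ratios. In TR9 it was 0.0245 with TMM, 0.0136 with the upper quartile, 0.0133 with the median of ratios and 0.0102 with totals without the 100 most abundant genes. Between TR9 and TR1, Rac1 was -0.0025 with the median of ratios and Ncf1 was 0.11 with the common sum. Over all genes, calls higher and lower were 1318 and 2120 in TR1, 1527 and 1766 in TR9, and 681 and 363 between TR9 and TR1. At a log2 ratio of at least 2 they were 685 and 1133, 738 and 928, and 283 and 135. At 0.5 they were 1905 and 3744, 2208 and 3085, and 1435 and 737. At an assumed variation of 0.2 they were 657 and 992, 717 and 830, and 188 and 94, and at 0.4 they were 170 and 347, 161 and 287, and 13 and 2. TMM scaling gave 1674 and 1615, 1717 and 1503, and 551 and 445. The upper quartile gave 1627 and 1665, 1692 and 1521, and 565 and 430. The median of ratios gave 1676 and 1612, 1692 and 1521, and 538 and 453. Totals without the 100 most abundant genes gave 1554 and 1741, 1687 and 1533, and 604 and 401. The common sum gave 1062 and 2918, 1370 and 2064, and 850 and 319. A pseudocount of 1 FPKM gave 1173 and 1788, 1346 and 1513, and 535 and 319. In the pathway lists, 4 of the 5 scalings left Rap1b not called, and the same 4 left 1 of the 3 NADPH supply genes lower in TR1. TMM and the median of ratios also called 1 NADPH supply gene higher in TR1. For the 3 planned pairs, the log2 differences between libraries were nearly the same from counts as from FPKM. The ratios themselves were not, since counts are not scaled for length. The cause of these changes was not tested.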
